A study of Mus musculus with 12 samples.

Results

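Chemokine-high macrophages of the neonatal mouse meninges were defined here as the macrophages that devoted the largest share of their transcripts to the CC chemokine genes Ccl2, Ccl7 and Ccl12. Cells were kept where 200 or more genes were detected and mitochondrial transcripts made up no more than 10% of the UMIs (unique molecular identifiers, which count transcripts). A macrophage was a cell with at least 10 UMIs of Mrc1, Cd163, F13a1, Cbr2 and Pf4 together, and more of these than of the microglial genes Sparc, P2ry12, Tmem119 and Sall1. Of 16272 macrophages among 21689 kept cells, the chemokine-high cells were chosen by their Ccl2, Ccl7 and Ccl12 UMIs per total UMIs, as the top 5% over all 4 gene expression libraries, which gave 814 cells. The other 15458 macrophages of the same gate are called other macrophages.

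CCL2, CCL7 and CCL12 are secreted ligands of the receptor CCR2, and they draw Ly6C-high monocytes out of the bone marrow and into inflamed tissue. Border-associated macrophages are the resident macrophages of the meninges, marked by genes such as Mrc1, Pf4 and Lyve1. Tissue macrophages are among the known sources of these chemokines after injury.

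The animals were C57Bl/6j mice at postnatal day 4, left naive or sampled 6 h after hypoxia-ischemia (HI). Each library pooled the meninges of 12 mice, 6 male and 6 female, and single cells were profiled with the 10x Genomics 5' kit in 2 naive and 2 HI libraries. The 2 runs each held 1 HI and 1 naive library, and the labels do not say which library was in which run. No sham-operated group is among the samples, so HI cannot be told apart from surgery and handling, and with pools as replicates the p-values measure only the spread between these libraries.

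The libraries held between 51986763 and 68543046 UMIs, with 4212 to 6410 kept cells and a median of 9765.5 to 11191.5 UMIs per kept cell. Pairs of libraries shared 29 to 54 cell barcodes, and no chemokine-high cell had a barcode shared with a chemokine-high cell of another library. In chemokine-high cells the summed level of 13 border-associated macrophage markers was 19741 to 21711 CPM (UMIs of the gene per 1000000 UMIs of the class in that library), against 19318 to 20844 in other macrophages. The 9 microglia markers summed to 2386 to 2582 CPM, against 2262 to 2749 CPM in other macrophages, with Fcrls alone at 1527 to 1670 CPM. P2ry12 was counted in 75.9% of chemokine-high cells and 78.8% of others. The 7 classical monocyte markers summed to 9.46 to 24.5 CPM, below the 51.4 to 80.1 CPM of other macrophages. The 7 dendritic cell markers summed to 21.6 to 143 CPM, against 44.8 to 70.6 CPM, with the highest sum in naive 2, where H2-Eb1 stood at 107 CPM. The 5 mast cell or basophil markers were all at 0. The 5 B cell markers summed to 79.9 to 163 CPM, against 111 to 150 CPM in other macrophages, with Cd79a and Ms4a1 at 0 and the sum made up by Cd79b (58.9 to 88.8 CPM) and Ighm (18 to 87.2 CPM). The neutrophil markers summed to 64.2 and 50.7 CPM in naive chemokine-high cells and to 711 and 599 CPM after HI, with Ly6g at 0. In other macrophages they summed to 115 and 125 CPM in naive and to 789 and 343 CPM after HI. Choroid plexus markers stood at 1569 CPM in naive 1 against 22.7 to 25.7 CPM in the other libraries, and 98.7% of the Ttr UMIs there came from 1 cell.

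The rule genes lie close together on chromosome 11 (GRCm38.p6), with Ccl2 at chr11:82035577-82037452, Ccl7 at chr11:82045712-82047525 and Ccl12 at chr11:82101845-82103399. Ccl11 lies between Ccl7 and Ccl12, and Ccl8 and Ccl1 follow Ccl12. The 250 bases before the start of Ccl12 (chr11:82101595-82101844, plus strand) are shown because Ccl12 was the rule gene of highest level in each library, at 43.6%, 50.9%, 59.3% and 65.7% of the chemokine UMIs of chemokine-high cells in naive 1, naive 2, HI 1 and HI 2. They stand beside those of 3 other genes that were higher in chemokine-high cells and belong to different signalling responses. These are Nfkbia, the NF-kB inhibitor and target (chr12:55492648-55492897, minus strand), Gja1, the gap junction protein connexin 43 (chr10:56377050-56377299, plus strand), and Socs3, the feedback inhibitor of STAT3 signalling (chr11:117969367-117969616, minus strand). Capitals mark matches on either strand to the NF-kB letters (GGGA and TTCC with any 2 bases between), the AP-1 letters TGANTCA, the STAT letters TTCNNNGAA or the interferon-response core (GAAA repeated after any 2 bases). The sequences are RefSeq's, each written 5′ to 3′ on the gene's strand.
Ccl12: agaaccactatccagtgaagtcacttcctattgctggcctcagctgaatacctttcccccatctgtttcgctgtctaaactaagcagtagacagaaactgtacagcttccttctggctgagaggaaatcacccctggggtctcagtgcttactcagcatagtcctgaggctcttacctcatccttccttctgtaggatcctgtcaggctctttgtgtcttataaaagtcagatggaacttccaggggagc
Nfkbia: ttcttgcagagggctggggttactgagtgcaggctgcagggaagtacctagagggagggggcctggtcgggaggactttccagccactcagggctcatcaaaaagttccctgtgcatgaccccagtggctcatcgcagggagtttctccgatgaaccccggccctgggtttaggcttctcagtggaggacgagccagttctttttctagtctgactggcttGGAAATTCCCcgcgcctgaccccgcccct
Gja1: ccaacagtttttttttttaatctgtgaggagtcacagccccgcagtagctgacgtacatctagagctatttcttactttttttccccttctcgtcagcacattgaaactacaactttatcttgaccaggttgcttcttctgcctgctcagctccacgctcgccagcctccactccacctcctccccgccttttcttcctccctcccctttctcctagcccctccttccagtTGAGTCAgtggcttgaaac
Socs3: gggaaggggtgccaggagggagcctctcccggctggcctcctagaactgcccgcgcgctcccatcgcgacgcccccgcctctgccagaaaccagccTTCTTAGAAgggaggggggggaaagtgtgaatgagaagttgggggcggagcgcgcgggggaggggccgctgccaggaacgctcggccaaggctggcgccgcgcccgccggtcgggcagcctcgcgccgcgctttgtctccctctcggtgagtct
The Ccl12 window held no match to these letters, Nfkbia held the NF-kB letters, Gja1 the AP-1 letters and Socs3 the STAT letters. The genes shown come from a longer list of scanned genes, in which matches did not follow the gene's response throughout. The windows of Tnf, Ier3, Bcl3, Junb, Pim1, Il4ra and Ccl8 held no match. Icam1 and Nfkbid, of the NF-kB list, matched only the STAT letters. Plk2 held the interferon-response core, and Cxcl10 the NF-kB, AP-1 and interferon-response letters. Of 32851 RefSeq windows of this length, 1.21% held the NF-kB letters, 6.75% the AP-1 letters, 7.02% the STAT letters and 2.98% the interferon-response core. A match is a stretch of letters and not evidence of binding. Ccl2, Ccl7 and Vcam1 were missing from the sequence table.

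The share of macrophages that were chemokine-high was higher in both HI libraries than in both naive libraries. It was 3.87% of 3696 macrophages in naive 1 (95% exact binomial interval 3.27 to 4.54%) and 2.63% of 4492 in naive 2 (2.18 to 3.14%). It was 6.61% of 3161 in HI 1 (5.77 to 7.53%) and 6.99% of 4923 in HI 2 (6.29 to 7.74%). The groups did not overlap, and the means differed by 3.55 percentage points. The exact 2-sided permutation test over libraries gave p = 0.333, the smallest p this design allows. With each cell thinned to 3000 UMIs before the cut, the shares were 4.65%, 3.14%, 6.93% and 7.90% in naive 1, naive 2, HI 1 and HI 2. The intervals cover counting error only.

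The difference was smaller when Ccl12 was not part of the cut. A cut on Ccl2 and Ccl7 alone, chosen after seeing the data, gave shares of 5.74% in naive 1, 3.43% in naive 2, 6.52% in HI 1 and 4.94% in HI 2. These groups overlapped, with a difference of 1.14 percentage points (exact permutation p = 0.667). The cell sets also differed: 450 of the 814 chemokine-high cells (55.3%) were in the top 5% by Ccl2 and Ccl7 alone, 608 (74.7%) were in the top 5% by Ccl12 alone, and 246 were in both.

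**Figure D1:**
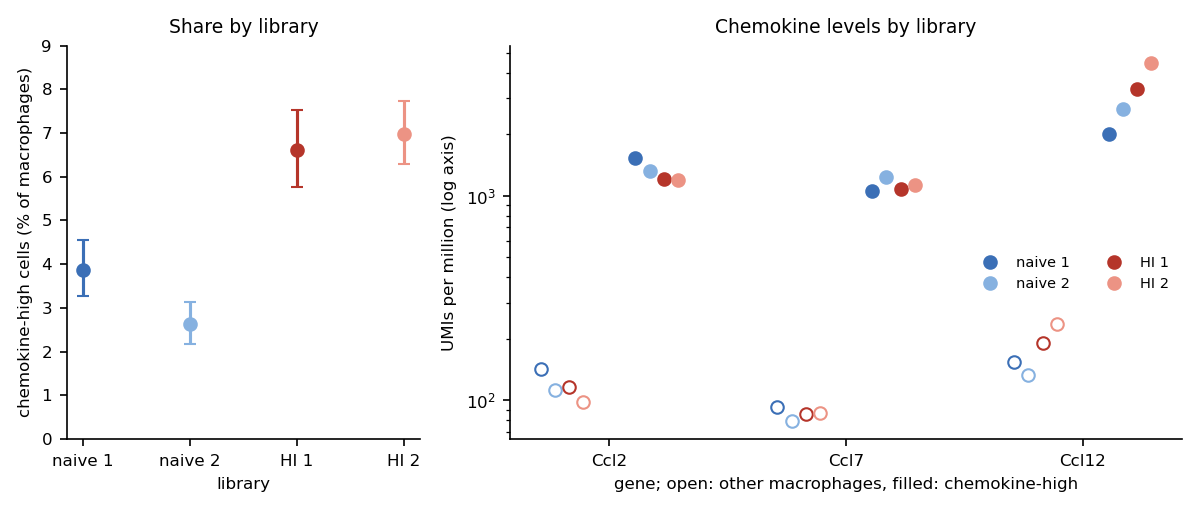
Left, chemokine-high cells as a percentage of macrophages in each library, with 95% exact binomial intervals; both HI libraries lie above both naive libraries. Right, Ccl2, Ccl7 and Ccl12 in CPM on a log axis, with open points for other macrophages and filled points for chemokine-high cells; Ccl12 spans 2001 to 4438 CPM in chemokine-high cells.

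The chemokine levels themselves are a description, since they chose the cells. Ccl2 stood at 1535, 1324, 1205 and 1188 CPM in chemokine-high cells of naive 1, naive 2, HI 1 and HI 2, and at 98.5 to 143 CPM in other macrophages. Ccl7 stood at 1055, 1237, 1077 and 1129 CPM, against 79.1 to 92.8 CPM in other macrophages. Ccl12 stood at 2001, 2653, 3322 and 4438 CPM, against 134 to 236 CPM in other macrophages. Both HI libraries had more Ccl12 than both naive libraries in either class, Ccl2 was lower in both HI libraries of the chemokine-high class, and Ccl7 overlapped. The 3 genes are related in sequence, and how reads matching more than 1 of them were counted is not given in the sources used here.

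The score was continuous across the cut. The lowest chemokine-high cell had 2.677 chemokine UMIs per 1000 UMIs and the highest other macrophage 2.677, the median chemokine-high cell 4.31, and the highest 41.9. Within 10% of the cut lay 108 cells above and 128 below. A chemokine-high cell held a median of 46 chemokine UMIs and at least 11, while 24.6% of macrophages held none. In 394 B cells, which should lack these genes, Ccl2 was counted in 2.79%, Ccl7 in 0.508% and Ccl12 in 11.4%, against 44.7%, 40.7% and 50.02% of other macrophages and 87.3%, 86.9% and 96.6% of chemokine-high cells. Median depth was 10624.5 UMIs in the B cells and 10749.5 in other macrophages. In the B cells Ccl12 stood at 20.1, 6.89, 97.2 and 40.7 CPM in naive 1, naive 2, HI 1 and HI 2. This background was thus higher in both HI libraries, and its part in the Ccl12 of other macrophages was not tested. Chemokine-high cells were shallower than other macrophages in naive 1 (9643 against 11462), naive 2 (8277.5 against 10542.5) and HI 2 (9397 against 10050), and deeper in HI 1 (11908 against 11329).

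Chemokine-high cells were not uniform in which chemokine they carried. Ccl12 made up more than 50% of the chemokine UMIs in 72 of 143 cells of naive 1 (50.3%), 71 of 118 of naive 2 (60.2%), 138 of 209 of HI 1 (66.0%) and 273 of 344 of HI 2 (79.4%). Set beside cells with mostly Ccl2 and Ccl7, these Ccl12-led cells had more Creb5, a transcription factor of the CREB family, and more Ifit1, an interferon-induced inhibitor of viral translation, in each of the 4 libraries. Creb5 was 60.3, 42.4, 12.3 and 19.8 CPM in Ccl12-led cells of naive 1, naive 2, HI 1 and HI 2, against 6.33, 2.31, 5.97 and 8.90 CPM. Ifit1 was 54.4, 66.0, 62 and 75.1 CPM, against 3.80, 30.0, 17.9 and 10.2 CPM. Lyve1, the hyaluronan receptor of perivascular and meningeal macrophages, was lower in the Ccl12-led cells of each library, at 1325, 1616, 2305 and 2192 against 3062, 2878, 3047 and 2713 CPM. The adhesion molecule gene Icam1 differed most in the naive libraries, at 48.5 and 50.3 CPM in Ccl12-led cells against 7.60 and 4.62 CPM. After HI it was 64.1 and 46.4 against 38.2 and 43.2 CPM. Other genes went the other way. Nfkbiz was 20.6, 47.1, 30.5 and 31.9 CPM in Ccl12-led cells against 68.4, 57.7, 50.2 and 95.3 CPM. Egr1 was lower in naive 1, naive 2 and HI 2 (51.5, 28.3 and 53.1 against 90.0, 85.4 and 211 CPM) and higher in HI 1 (83.4 against 69.3). The cells with mostly Ccl2 and Ccl7 numbered 70, 43, 69 and 70, so their lowest values rest on few UMIs. These subsets were cut from the same 3 genes after the data were seen and were not tested.

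Chemokine-high cells were then compared with other macrophages over summed UMIs, with the library as a block, to describe what else set them apart. Immediate-early genes, NF-kB targets, Tnf and interferon-induced genes were higher, and mitotic genes were lower. In edgeR's quasi-likelihood test 674 of 12200 genes were higher and 491 lower at an adjusted p under 0.05, which is 5.52% and 4.02%, or 9.55% of all genes tested. Of the 1165, 1030 kept their direction in 4 of 4 libraries. DESeq2 called 751 genes, of which 702 were shared, all with the same sign. Against other macrophages matched for depth, 1109 of the 1165 were tested, all kept their sign and 934 were past the threshold. Leaving out HI 2 left 266 genes higher and 234 lower, and leaving out HI 1 left 405 genes higher. edgeR draws each gene's spread toward that of all genes, so very small p-values do not measure a gene's own spread over 4 libraries.

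Immediate-early genes are the first wave of transcription after a stimulus. Of 25 tested, 16 were higher and none lower, with a median log2 difference of 0.98, against -0.0080 for all genes tested. Egr1, a zinc finger factor of this wave, was 71.6, 50.7, 78.7 and 87.4 CPM in chemokine-high cells and 7.18, 5.11, 8.65 and 4.98 CPM in other macrophages of naive 1, naive 2, HI 1 and HI 2. All 4 values in chemokine-high cells lay above all values in other macrophages, a log2 difference of 3.5 ± 0.15 (SE, adjusted p = 9.15e-09). Egr1 was counted in 20.4% of chemokine-high cells and 2.90% of others, and at 3000 UMIs per cell in 10.4% and 1.16%. Jun, a subunit of AP-1, was 239, 307, 261 and 282 CPM against 117, 128, 119 and 132 (log2 1.11 ± 0.06, adjusted p = 3.11e-12). Myc, a growth regulator, was 51.3, 39.0, 121 and 82.9 CPM against 15.5, 17.4, 33.6 and 30.8 (log2 1.57 ± 0.10, adjusted p = 2.54e-10). Fos, the partner of Jun, was higher in every library (log2 1.48 ± 0.22), but its adjusted p of 0.0305 became 0.077 without naive 2 and 0.14 without HI 2. Plk3, a stress-induced kinase, had a log2 difference of 1.66 and lost its call without HI 2 (adjusted p = 0.21).

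Of the targets and inhibitors of NF-kB, the transcription factor of inflammatory signalling, 11 of 24 were higher and none lower, with a median of 0.49 (6 of 24 higher with the cut on Ccl2 and Ccl7 alone). Ier3, an early-response gene that limits NF-kB and cell death, was 277, 357, 208 and 355 CPM against 64.2 to 76.0 in other macrophages (log2 2.06 ± 0.10, adjusted p = 7.22e-07). Nfkbid, a nuclear IkB protein, was 52.0, 50.7, 31.8 and 25.2 CPM against 9.82 to 13.7 (log2 1.70 ± 0.14, adjusted p = 6.74e-09). In neither gene did the classes overlap. Nfkbiz (log2 1.35), Bcl3 (1.38) and Icam1 (1.32) were higher as well. Nfkbia, at 130, 213, 169 and 199 CPM, had a log2 difference of 0.73 and an adjusted p of 0.0119, which became 0.16 without HI 1.

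Cytokine genes differed member by member. Tnf, the inflammatory cytokine TNF, was 48.0, 89.7, 88.9 and 85.4 CPM in chemokine-high cells and 10.1, 10.8, 14.0 and 13.4 CPM in other macrophages. The lowest chemokine-high value was above every other value (log2 2.65 ± 0.11, adjusted p = 4.86e-14). With the cut on Ccl2 and Ccl7 alone its log2 difference was 2.26 and its adjusted p 0.0535. Of 12 tested genes of cytokines and the IL-1 system 4 were higher (Tnf, Il1a, Il1b and Osm) and Csf1, the macrophage growth factor, was lower. Il1b had 96.1% of its UMIs of HI 1 in 1 cell, and Il1a had 70.4% of those of HI 1 and all 8 of naive 1 in 1 cell. Among 9 other CC chemokines tested Ccl3 (log2 1.43) and Ccl8 (1.04) were higher and Ccl6 (-0.73) lower. The adjusted p of Ccl8 was 0.14 without naive 1 and 0.13 without naive 2.

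Of 6 CXC and CX3C chemokines, Cxcl16, a membrane-bound ligand for CXCR6 on T cells, was higher at 64.2, 43.5, 50.1 and 44.8 against 12.4 to 20.9 CPM (log2 1.59 ± 0.12, adjusted p = 1.44e-09). Cxcl10, a ligand of CXCR3, also passed (log2 3.23), with 95.5% of its HI 1 UMIs in 1 cell. Cxcl2, a neutrophil attractant, did not pass (log2 2.49, adjusted p = 0.178) and had 98.9% of its HI 1 UMIs in 1 cell. Among 9 chemokine receptors Ccr2, the receptor for the 3 rule chemokines, was lower at 8.78, 9.06, 12.8 and 13.8 against 20.2, 11.8, 18 and 23.8 CPM. Its log2 difference was -0.74 (adjusted p = 0.00279, and 0.057 without HI 2), and 4 or 5 cells in HI 1 and HI 2 and 1 or 2 in the naive libraries held all its UMIs.

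Interferon-induced genes were higher in 22 of 24 cases, none lower, with a median log2 difference of 1.21. Ifit1 was 27, 53.5, 48.3 and 60.8 CPM against 10.7 to 11.3 (log2 2.10 ± 0.15, adjusted p = 2.59e-07). Isg15, a ubiquitin-like modifier, was 102, 116, 141 and 197 CPM against 46.6 to 59.2 (log2 1.37 ± 0.09). Both were higher in 4 of 4 libraries. Rsad2 (log2 2.48), Ifit3b (1.98), Ifit2 (1.96) and Ifit3 (1.89) were also higher. Rsad2, the antiviral enzyme viperin, had 57.3% of its HI 1 UMIs in 1 cell and an adjusted p of 0.077 without HI 1. Ifit3 and Ifit3b are near-identical, so their split is uncertain. Part of the chemokine-high set was also interferon-high, in the top 5% of the gate by 7 interferon-induced genes: 102 cells, 12.5% of chemokine-high cells against 4.61% of other macrophages. With those cells and the Ccl8 and Mgl2 high cells left out of both classes, 3 of 23 interferon genes were higher and Ifit3b turned to -0.39. The cells left out were picked for their interferon genes, so fewer such calls follow from the removal and are no test of that list. In the same fit 14 of 25 immediate-early and 9 of 24 NF-kB genes were higher. That alternative was chosen after seeing the data. With the cut on Ccl2 and Ccl7 alone, 12 of 23 interferon genes were higher.

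Mitotic genes were lower. Of 25 cell cycle genes, 12 were lower and 1 higher, with a median log2 difference of -0.97. Cenpa, the centromeric histone H3 variant, was 46.6, 49.8, 30.0 and 48.9 CPM against 107, 89.6, 79.5 and 80.2 (log2 -1.04 ± 0.10, adjusted p = 1.45e-06). Cks2, a subunit of the cyclin-dependent kinase complex, was 15.5, 17.2, 14.6 and 21.0 against 29.2 to 41.2 (log2 -0.98 ± 0.13). Neither gene's classes overlapped. The lower members act in mitosis (Mki67, Tpx2, Plk1, Ccnb1 and Kif20a among them), while the member that was higher, Mcm2, belongs to the replication helicase (log2 0.53, adjusted p = 0.00166). Without naive 1, 6 members were lower, and with the cut on Ccl2 and Ccl7 alone 4. The calls of Cenpf (log2 -1.01), Plk1 (-1.39), Ccnb1 (-1.29) and Bub1 (-1.15) were lost when single libraries were left out, with adjusted p up to 0.066, 0.10, 0.14 and 0.085.

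Other genes named by size were Creb5 (log2 3.30 ± 0.22, adjusted p = 2.72e-10), Gja1 (1.95 ± 0.17), Phlda1 (1.86), Gpr84, a receptor for medium-chain fatty acids (1.78), and Rcan1, the inhibitor of calcineurin (2.46). Rcan1 had an adjusted p of 0.0251, which became 0.17 without HI 1 and 0.19 without HI 2, and 69.0% of the Gpr84 UMIs of naive 1 came from 1 cell. The lower genes were the circadian output factor Dbp (-0.86), the phosphatidate phosphatase Lpin1 (-0.85), Klhl24 (-0.83), Asb10 (-0.80), Gpr155 (-0.95), Cbx8 (-0.89) and the nuclear receptor Rora (-0.82). Gpr155 lost its call without HI 1 (adjusted p = 0.13), Cbx8 without HI 2 (0.10), and Rora without HI 1 (0.20) and HI 2 (0.059). All of these pointed the same way in 4 of 4 libraries, which was a condition for naming them.

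**Figure D2:**
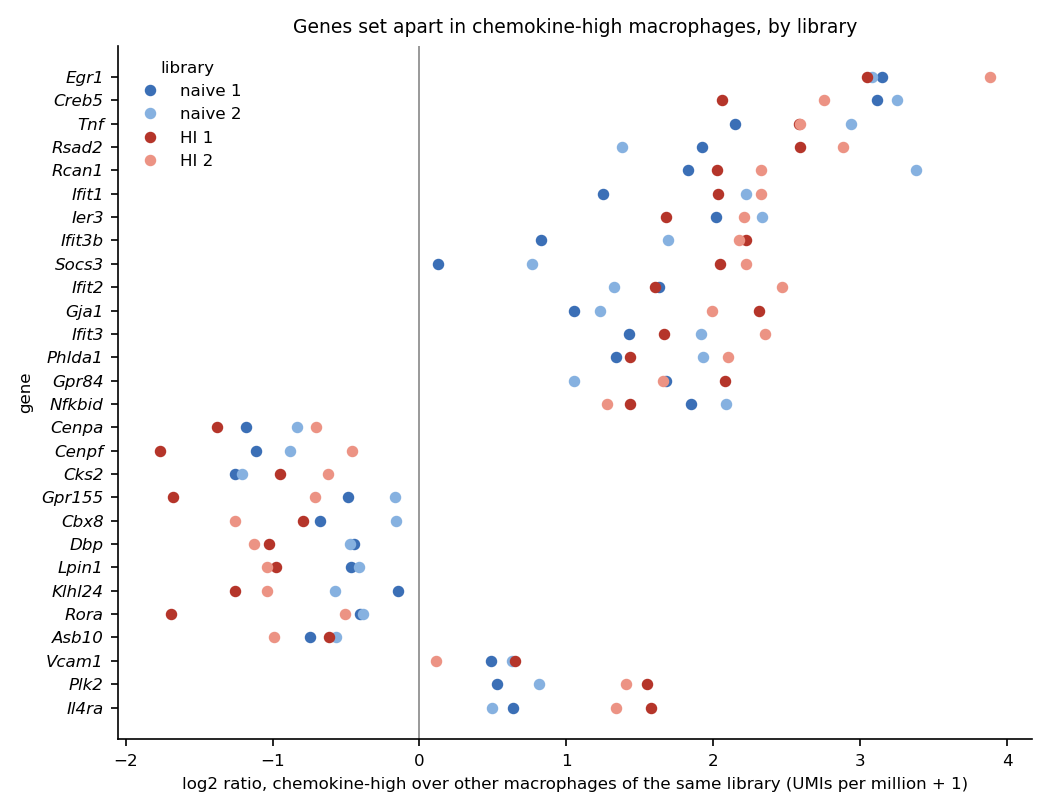
Log2 ratio of chemokine-high to other macrophages of the same library, from CPM plus 1, for the genes named by size and for Vcam1, Plk2 and Il4ra; each point is 1 library and the grey line marks no difference. Socs3, Plk2 and Il4ra lie farther right in the HI libraries (red) than in the naive libraries (blue).

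Resident macrophage identity genes differed little in size. Of 19 tested, 4 were lower (Timd4 -0.44, Fcna -0.33, Folr2 -0.24 and Apoe -0.12) and Fcrls was higher at 0.18. Folr2 lost its call without HI 2 (adjusted p = 0.10). Of 16 phagocyte and lipid genes, Gpnmb, a lysosomal glycoprotein, was lower at 0, 0, 1.83 and 1.66 CPM against 5.50 to 23.8 (log2 -3.47, adjusted p = 0.000105). Axl, a receptor for apoptotic cells, was higher at 0.55, with an adjusted p of 0.099 without HI 1. Hypoxia and glycolysis genes (1 of 21 higher) and heat shock genes (1 of 11 higher) were mostly short of the threshold. None of 6 MHC class II genes passed, and of the H2-Aa UMIs of naive 2 chemokine-high cells 99.5% came from 1 cell. The highest expressed members of several lists were near 0: Gapdh (-0.0039), Mt1 (0.032), Cd74 (0.14), Cx3cr1 (-0.070), Il10rb (-0.028), Hspa8 (0.14), Itgb1 (0.069), Tgfb1 (0.072), Ftl1 (-0.12), Ccl24 (0.15) and Mcm6 (0.26), none past the threshold.

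**Figure D3:**
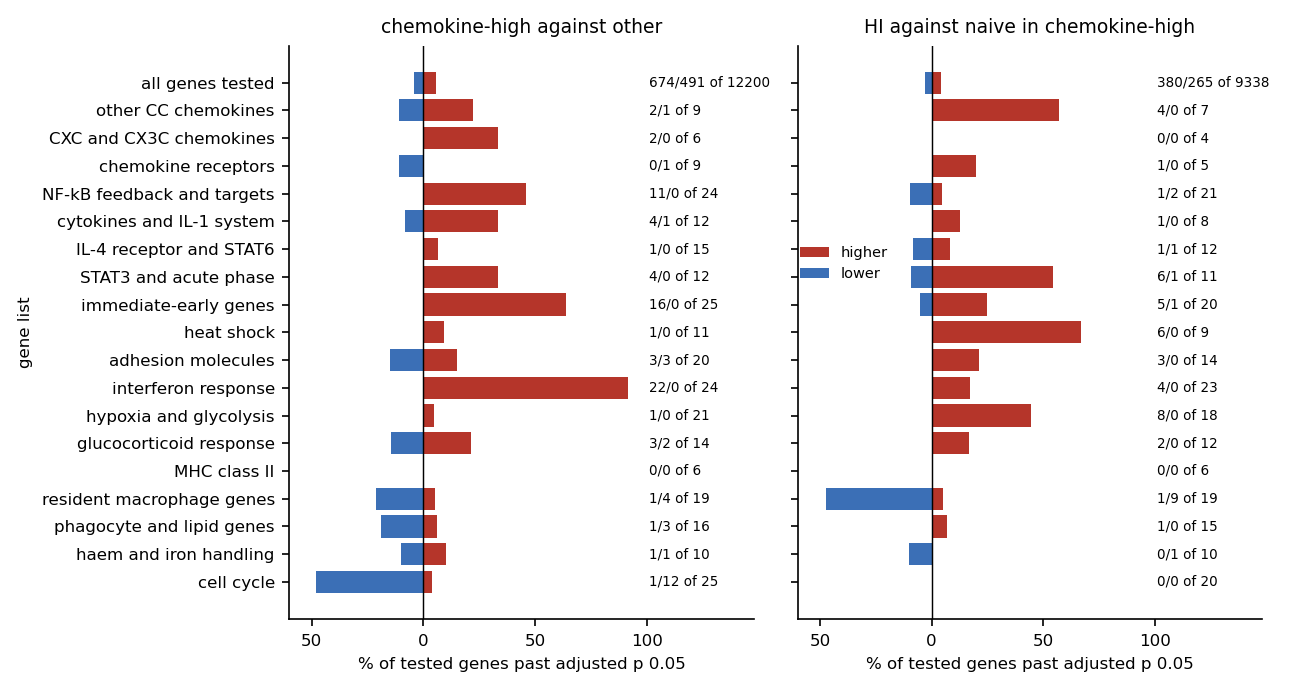
Percentage of tested genes of each list past an adjusted p of 0.05, higher (red, right) or lower (blue, left), for chemokine-high against other macrophages and for HI against naive within chemokine-high cells. The figures at the right give higher and lower counts of the genes tested; the interferon list reaches 22 of 24 in the first comparison and 4 of 23 in the second.

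The given markers Vcam1, Plk2 and Il4ra were set against these classes next. They came with the definition of the chemokine-high cells, so their tests are no independent support for it. Plk2 also belongs to the immediate-early list above. Plk2, a stress-induced polo-like kinase, was 56.1, 78.8, 173 and 163 CPM against 38.6, 44.4, 58.6 and 60.6, higher in 4 of 4 libraries (log2 1.18 ± 0.20, adjusted p = 0.0415, and 0.14 without HI 2). Vcam1, the adhesion molecule bound by leukocyte integrins, was 16.2, 21.7, 68.1 and 60.3 against 11.3, 13.7, 43.1 and 55.7 (log2 0.41 ± 0.11, adjusted p = 0.0206). That call was lost without naive 1 (0.052), naive 2 (0.067) or HI 1 (0.42), and the difference was -0.067 with the cut on Ccl2 and Ccl7 alone. Il4ra, the receptor chain for IL-4 and IL-13, was 215, 208, 644 and 512 against 138, 147, 216 and 202 and did not pass (log2 1.05 ± 0.26, adjusted p = 0.144). It was higher in 4 of 4 libraries by unequal amounts.

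**Figure D4:**
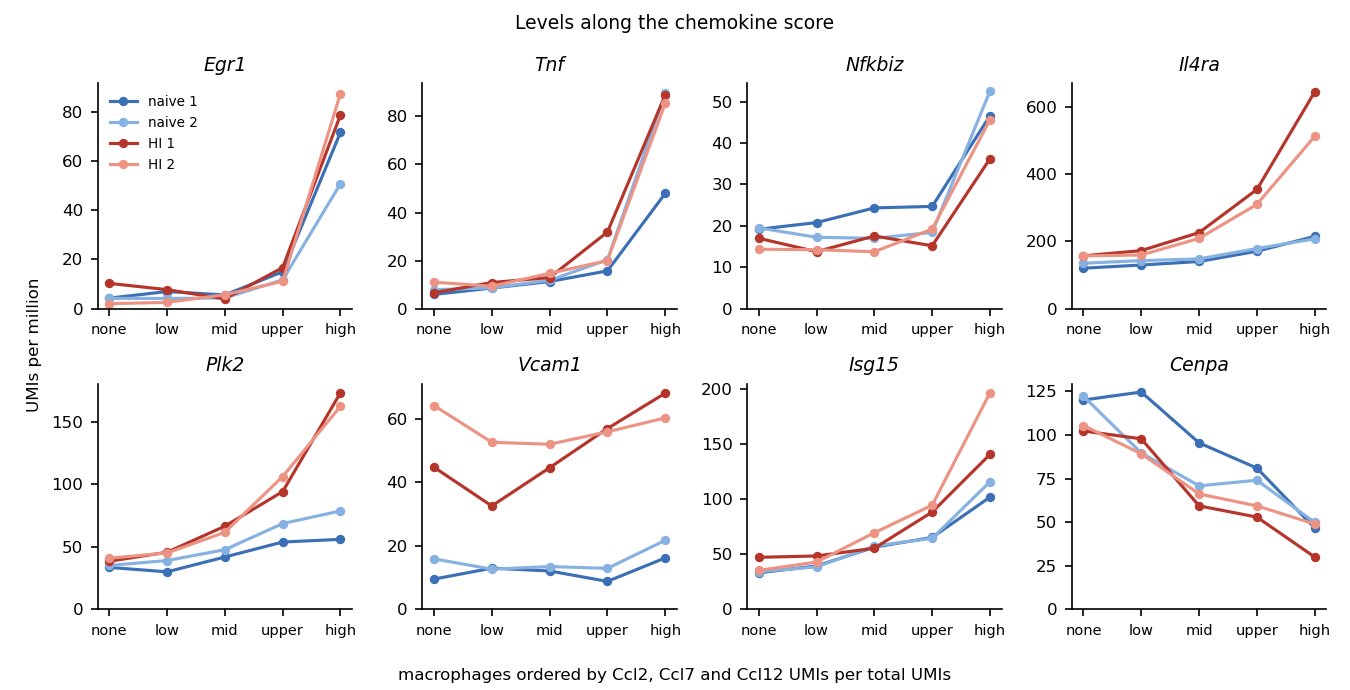
CPM of 8 genes in macrophages binned by chemokine score (none, at least 1 UMI up to the median, median to the 80th percentile, 80th percentile to the cut, and chemokine-high), 1 line per library. Egr1 and Tnf are highest in the last bin, Il4ra and Plk2 climb in the HI libraries, and Cenpa declines.

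Along the chemokine score, Egr1 was flat up to the 80th percentile and higher above it, whereas the means of Tnf, Il4ra and Plk2 climbed from bin to bin. Averaged over libraries, Egr1 was 5.19 CPM in cells without a chemokine UMI, 13.6 CPM between the 80th percentile and the cut, and 72.1 CPM in chemokine-high cells. Tnf was 7.86, 22.0 and 78.0 CPM in the same bins. Il4ra climbed from 142 through 253 to 395 CPM, and Plk2 from 37.1 through 80.8 to 118 CPM. Vcam1 moved little, from 33.6 through 33.6 to 41.6 CPM. The upper bin is the chemokine-high set itself, and these averages were not tested.

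Within chemokine-high cells the HI libraries were compared with the naive libraries. The HI libraries had more of the STAT3 feedback gene Socs3, of Il4ra, Plk2 and Vcam1, of glycolysis genes and of heat shock genes, and less of several resident macrophage genes. In edgeR's test 380 of 9338 genes were higher in HI (4.07%) and 265 lower (2.84%), or 6.91% in either direction. DESeq2 called 168, 157 of them shared and all of the same sign. Without naive 1 edgeR called 34 higher and 9 lower, and without naive 2 135 and 84. In these sums fewer cells of a state and less RNA per cell cannot be told apart.

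Socs3 was 3.38 and 4.53 CPM in naive and 62.9 and 83.2 in HI chemokine-high cells, counted in 3.45% and 30.4% of cells (log2 4.24 ± 0.30, adjusted p = 2.73e-10). Il4ra was 215 and 208 CPM in naive and 644 and 512 in HI (log2 1.46 ± 0.11, adjusted p = 2.74e-09). Plk2 rose from 56.1 and 78.8 to 173 and 163 CPM (log2 1.35 ± 0.14, adjusted p = 8.29e-07). Vcam1 rose from 16.2 and 21.7 to 68.1 and 60.3 CPM (log2 1.79 ± 0.21, adjusted p = 2.22e-06), and Gja1 from 13.5 and 19.0 to 85.3 and 75.5 CPM (log2 2.34 ± 0.21). With 1 library left out, the log2 difference ran from 4.00 to 4.45 for Socs3, 1.30 to 1.62 for Il4ra and 1.08 to 1.61 for Plk2. It ran from 1.55 to 2.00 for Vcam1 and 2.06 to 2.59 for Gja1. Tnf (log2 0.39, adjusted p = 0.477) and Egr1 (0.43, adjusted p = 0.0955) did not pass.

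Among STAT3 and acute phase genes 6 of 11 were higher and Il6ra was lower. Besides Socs3 these were Stat3, Pim1, Sbno2, Lrg1 and Saa3. Lrg1, a secreted acute phase glycoprotein, had 0 UMIs in naive and 98 in HI chemokine-high cells, at least 13.3-fold higher against a floor of 3 counts over the naive group. Saa3, serum amyloid A3, had 1 UMI against 85, a ratio of 34.6 with a counting interval of 6.04 to 1382, and 82.9% of its HI 1 UMIs came from 1 cell. Sema6b, a transmembrane semaphorin, likewise had 1 UMI against 75 (ratio 30.5, counting interval 5.31 to 1221), at 11 and 12.4 CPM in HI. Without naive 1, Lrg1 and Sema6b had an adjusted p of 0.054 each and Sbno2, a STAT3-induced corepressor, 0.097. The summed neutrophil markers were higher in the same HI libraries, and their part in these genes was not tested.

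Of 18 hypoxia and glycolysis genes 8 were higher and none lower, with a median log2 difference of 0.43 against -0.0061 for all genes tested. Slc2a1, the glucose transporter GLUT1, was 4.73 and 3.62 CPM in naive and 21.6 and 22.1 in HI (log2 2.36 ± 0.36, adjusted p = 0.000112, and 0.056 without naive 1). Pgam1 and Pkm, enzymes of lower glycolysis, rose by 1.11 and 0.86 and kept their calls in all 4 fits with a library left out. Of 9 heat shock genes 6 were higher, at log2 0.33 to 0.72, and none passed without naive 1. Among 7 other CC chemokines Ccl6 (1.05), Ccl9 (0.98), Ccl8 (1.06) and Ccl3 (0.70) were higher. Of these Ccl6 and Ccl9 kept their calls with any library left out, while Ccl8 and Ccl3 had adjusted p of 0.23 and 0.16 without naive 1 and of 0.11 and 0.10 without naive 2.

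Resident macrophage genes moved the other way, with 9 of 19 lower, 1 higher and a median of -0.32. Igf1, an insulin-like growth factor, was 482 and 524 CPM in naive and 300.4 and 358 in HI (log2 -0.60 ± 0.10, adjusted p = 0.000412). Timd4, a receptor for phosphatidylserine, was 46.6 and 53.5 CPM in naive and 31.8 and 27.6 in HI (log2 -0.74). Stab1, a scavenger receptor, Csf1r, the receptor for macrophage growth factor, Folr2, Ms4a7, Maf and Dab2 were lower as well. Cd209g, a C-type lectin, fell by 1.76 on the log2 scale, with an adjusted p of 0.000242, which was 0.097 without naive 1. Without naive 1 none of the 19 was lower.

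The remaining genes named by size were higher Igfbp6 (log2 2.98), Slc16a12 (2.71), the zinc transporter gene Slc39a14 (2.35) and the lectin gene Clec4d (2.05). Lower were the circadian repressor Nr1d2 (-2.10), the apoptosis gene Bbc3 (-1.84), Tubb2b (-1.58), Dbp (-1.51), Gimap6 (-1.46), Samd4 (-1.44) and Ece1 (-1.39). The 7 neuron or glia markers summed to 241 and 144 CPM in naive and to at most 115 CPM in HI chemokine-high cells, and their part in the lower Tubb2b was not tested. Each of the genes named by size had both HI libraries beyond both naive libraries, which was a condition for naming them. Apart from Socs3 and Gja1, each of them lost its call without naive 1. Slc16a12 also lost it without HI 2, Nr1d2 and Bbc3 without naive 2, and Ece1 without any 1 library.

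Whether HI moved these genes by different amounts in chemokine-high and in other macrophages was tested directly, as the interaction of class and HI. In edgeR 198 of 12881 genes had a larger HI effect in chemokine-high cells (1.54%) and 119 a smaller one (0.924%), 2.46% in all. DESeq2 called 55, of which 52 were shared, and edgeR called 97 and 56 without naive 1, 109 and 53 without naive 2, and 100 and 37 without HI 1. Il4ra was the clearest of the given markers, since it went from 138 and 147 to 216 and 202 CPM in other macrophages and from 215 and 208 to 644 and 512 in chemokine-high cells. The log2 difference of the HI effects was 0.89 ± 0.09 (adjusted p = 5.85e-15), and it passed in 11 of 11 alternatives. Plk2 behaved alike, with 0.81 ± 0.13 (adjusted p = 3.32e-06). For Vcam1 the difference was -0.22 ± 0.24 (adjusted p = 0.817), and for Tnf -0.00076 ± 0.15.

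Junb, an AP-1 subunit, was 60.4 and 54.5 CPM in naive and 58.5 and 67.2 in HI other macrophages, against 90.5 and 92.4 and then 212 and 237 in chemokine-high cells. Its difference of HI effects was 1.18 ± 0.12 (adjusted p = 7.95e-15). Pim1, a kinase induced by STAT signalling, went from 29.8 and 29.5 to 30.4 and 38.9 CPM in other macrophages and from 45.3 and 44.4 to 93.3 and 94.8 in chemokine-high cells (0.85 ± 0.16, adjusted p = 0.000123). Dnaja1, a co-chaperone of HSP70, had a difference of 0.61 ± 0.10. All 3 held with any 1 library left out. Socs3 had a larger difference, 1.68 ± 0.41 (adjusted p = 0.00541), which was lost without naive 1 (adjusted p = 0.44).

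**Figure D5:**
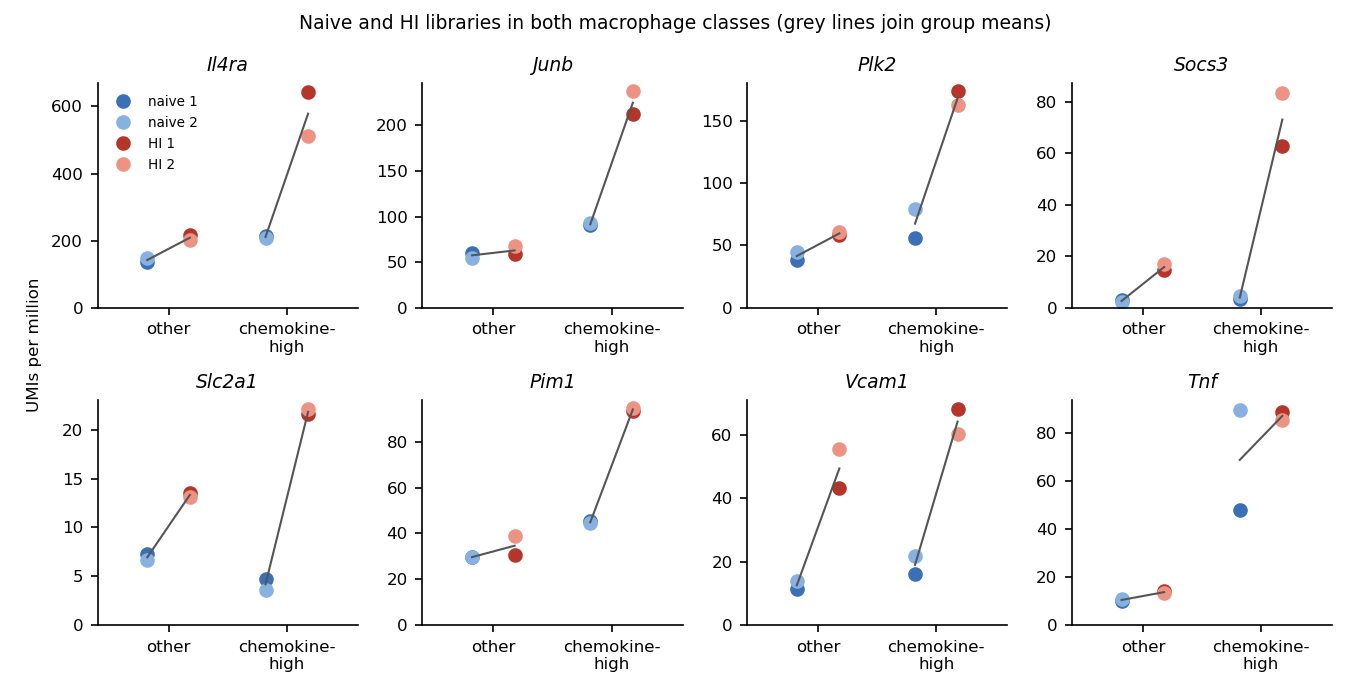
CPM of 8 genes in other and chemokine-high macrophages, naive (blue) beside HI (red), 1 point per library, with grey lines joining group means. Il4ra, Junb, Plk2 and Pim1 have steeper lines in chemokine-high cells, and for Vcam1 and Tnf the difference of HI effects did not pass the test.

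Smaller or opposite HI effects in chemokine-high cells were found for Cd209g (-1.60 ± 0.19, adjusted p = 6.11e-11) and Oxld1 (-1.25 ± 0.22). Cd209g was 82.4 and 52.6 CPM in naive and 24.9 and 16 in HI chemokine-high cells, against 34.4 and 24.8 and then 37.5 and 18.5 in other macrophages. With a top 10% cut its difference was 0.080. Wfdc17, a secreted protease inhibitor, had a larger HI effect in chemokine-high cells (1.49 ± 0.14, adjusted p = 3.76e-16), from 48.0 and 31.7 to 174 and 95.9 CPM. In other macrophages it was 123 and 76.3 CPM in naive and 144 and 93.8 in HI. The chemokine-high cells thus lay below other macrophages in both naive libraries. Of its HI 1 UMIs in chemokine-high cells, 28.4% were in 1 cell. Cd163, the haemoglobin scavenger receptor (-0.47), lost its call without naive 1 (adjusted p = 0.063). Sema6b (3.67), Tes (1.79), Cad (1.64), E130102H24Rik (-1.46), Gm29291 (-1.18) and Arrdc3 (-1.16) were the others named by size, and each lost its call when at least 1 library was left out, with adjusted p up to 0.21, 0.35, 0.38, 0.52, 0.78 and 0.42.

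Of the macrophage states in the same gate, chemokine-high cells overlapped in part with those high in Ccl8 and Mgl2, the top 5% by these 2 genes. The sets shared 64 cells, 7.86% of either set, against 4.85% of other macrophages. In each library this share was higher in chemokine-high cells than in other macrophages. With cells in more than 1 set left out, 660 chemokine-high cells were compared with 704 Ccl8 and Mgl2 high cells. Of 9644 genes 957 were higher (9.92%) and 1033 lower (10.7%), 20.6% in all. Tnf was 47.4, 106, 95.2 and 91.9 CPM against 1.84 to 6.82 (log2 3.90 ± 0.28, adjusted p = 6.72e-08). Egr2, Creb5, Egr1 and Pmepa1, a regulator of TGF-beta signalling, were higher by 4.36, 4.06, 3.46 and 3.43. Retnla, a marker of alternative activation, was 0, 0, 0.870 and 5.05 CPM in chemokine-high cells against 831 to 4473 (log2 -9.99 ± 1.01, adjusted p = 7.97e-05). Spint2 (-3.55), A930018M24Rik (-2.98), Gfra2 (-2.74) and the nuclease gene Dnase1l3 (-2.64) were lower too. Without HI 2, 449 genes were higher and 571 lower, and without HI 1 557 and 687.

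Against 666 interferon-high cells, 577 of 9644 genes were higher in chemokine-high cells (5.98%) and 690 lower (7.15%), 13.1% in all. Egr1 was 86.5, 65.1, 84.8 and 99.7 CPM against 1.14 to 12.5 (log2 4.15 ± 0.54, adjusted p = 0.000777). Egr2 (3.56), Tnf (3.12), Gja1 (2.89) and Creb5 (2.72) were higher as well, and Egr2 had adjusted p of 0.060 and 0.074 without HI 1 and HI 2. Ifit3b (-4.65), Cmpk2 (-4.23), Slfn1 (-3.75), Gm4955 (-3.48) and Gm13822 (-3.35) were lower. The interferon-high cells were picked for 7 interferon-induced genes and cells in both sets were left out, so lower interferon genes here are a description of that choice. Tnf, Egr1, Egr2 and Creb5 were thus higher in chemokine-high cells than in either set. Without HI 2, 206 genes were higher and 364 lower, and without HI 1 275 were higher and 442 lower.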

How the data were processed

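The deposited gene expression values were whole-number UMI counts per gene and cell barcode, 1 unnormalized matrix per library, and the receptor files gave UMI counts per contig, per the file headers. The submitters' processing notes name the tools Cell Ranger (2.2.0) and Seurat and list both mm10 and GRCm38 as builds; which step used which is not given in the sources used here. The members and gene lists were chosen with earlier results of these data known.

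UMI counts were summed per library and class and tested with edgeR 4.0.16 (filterByExpr, TMM, robust quasi-likelihood, 2-sided, Benjamini-Hochberg adjustment at 0.05) over all genes tested, with DESeq2 1.42.0 as the alternative. Ccl2, Ccl7 and Ccl12 were left out of the calls. Levels are CPM (per 1000000 UMIs of the class in the library). The library was a block in comparisons between classes. The number in a library's label was no block: the correlation of same-numbered deviations was 0.129 over 9341 genes, from 2 pairs only. Doublets were ranked with Scrublet in scanpy 1.11.5, whose automatic thresholds called 8 to 13 cells per library. The ranked doublets (0.8% per 1000 barcodes) were kept, and removed in an alternative. Of the chemokine-high cells 0 carried a B-cell receptor contig and 2, in HI 1, a T-cell receptor contig.

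Genes named by size had the largest fold changes past the threshold (up to 15 higher and 10 lower between classes, 8 each way for HI, 5 each way elsewhere), the same direction in every library, and a UMI in at least 10% of cells. The direction rule was not applied to the difference of HI effects. Of each list up to 4 called genes and the member of highest level were named, and a few named genes are not reported here. Alternatives were DESeq2, RLE size factors, no low-count filter, other cuts, depth matching, doublet removal, fits with and without blocks, and each library left out; the cuts on single chemokines and the removal of the other high cells were chosen after seeing the data. Fits ran in R 4.3.3, and the main edgeR fit of each comparison was tested on counts simulated with dispersions estimated from these data. Of 100 genes given a log2 difference of 1 either way, 70 were recovered between classes and 65 for HI. For the difference of HI effects 51 were recovered, against Ccl8 and Mgl2 high cells 90, and against interferon-high cells 85. Of 100 genes given a log2 difference of 2, the same fits recovered 91, 94, 77, 97 and 93 in that order. Beside these true calls stood false calls among genes given no difference. They numbered 20 between classes, 19 for HI and 20 for the difference of HI effects. Against Ccl8 and Mgl2 high cells there were 11, and against interferon-high cells 8. Of 28694 gene rows 28341 matched the gene table.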

Additional observations from a re-analysis of the deposited data

Results flagged for a closer look

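The test of the difference between HI effects in chemokine-high and other macrophages passed for the genes below, each given as the log2 difference, positive where the HI effect was larger in chemokine-high cells. Il4ra (0.89), Plk2 (0.81), Junb (1.18), Wfdc17 (1.49), Dnaja1 (0.61) and Oxld1 (-1.25) passed under all 11 alternatives. Pim1 (0.85), Fabp5 (1.10), Rsad2 (1.03), Ccl6 (0.62) and Cd209g (-1.60) passed with any 1 library left out.

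The following lost the call when at least 1 library was left out. Among genes named by size these were Sema6b (3.67), Tes (1.79), Socs3 (1.68), Cad (1.64), E130102H24Rik (-1.46), Gm29291 (-1.18) and Arrdc3 (-1.16). Among chemokines and their receptors they were Ccl24 (-0.37), Ccr1 (0.40) and Cx3cr1 (0.29). Stress and stimulus genes among them were Saa3 (3.55), Ier2 (0.51), Klf6 (-0.41), Hspd1 (0.52), Hsp90aa1 (0.41), Hspa8 (0.32) and Tsc22d3 (-0.64). Interferon genes among them were Cmpk2 (1.63) and Ifit3b (1.01), and glycolysis genes Slc2a1 (1.44), Ldha (0.38) and Pkm (0.34). Resident macrophage and phagocyte genes among them were Cd163 (-0.47), Clec10a (-0.36), Lpl (-0.44), Abca1 (-0.37) and Trem2 (0.33). Cell cycle genes among them were Plk1 (1.86), Ccnb1 (1.78), Ccna2 (1.35) and Rrm2 (0.99), and 84.6% of the Plk1 UMIs in HI 1 chemokine-high cells came from 1 cell.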

How the results depend on the processing

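With 2 pooled libraries per group, counts of calls moved more than directions. Between classes, calls were 291 lower with DESeq2, 386 higher and 177 lower with the cut on Ccl2 and Ccl7, 213 and 80 without the library block, 823 lower with no low-count filter, and 447 higher with the top 5% taken within each library. Leaving out 1 library gave 266 to 650 higher and 234 to 452 lower. For HI against naive, calls were 124 higher and 44 lower with DESeq2, 601 higher with no filter, and 152 and 86 with a top 2.5% cut. Leaving out 1 library gave 34 to 477 and 9 to 296. For the difference of HI effects, calls were 35 and 20 with DESeq2, 74 and 49 with the top 2.5%, and 366 and 235 with the cut within each library, with 97 to 176 and 37 to 93 when 1 library was left out. Against Ccl8 and Mgl2 high cells leaving out 1 library gave 449 to 903 and 571 to 952, and against interferon-high cells 206 to 597 and 364 to 653. The difference in share was 1.99 points with the top 2.5%, 4.69 with the top 10%, 1.14 with the cut on Ccl2 and Ccl7, and 2.93 to 4.17 with 1 library left out. The cause of these shifts was not tested.

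With the number in the label as a replicate block, the HI comparison called 661 genes higher and 500 lower. The labels do not say that the number pairs libraries.

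Some log2 differences changed sign. Between classes these were Ifit3b (-0.39) and Gapdh (0.037) with the other high cells left out, Gapdh with DESeq2 (0.0040), RLE (0.0013), depth matching (0.024), no library block (0.012) and the top 10% (0.012), and Ccl24 (-0.24), Cx3cr1 (0.13) and Mt1 (-0.073) with the cut on Ccl12. With the cut on Ccl2 and Ccl7 they were Vcam1 (-0.067), Ccr2 (0.013), Gapdh (0.063), Cd74 (-0.012), Folr2 (0.060) and Axl (-0.081). With the highest doublet scores removed they were Mt1 (-0.0052) and Cd74 (-0.18). With the top 10% Cd74 was -0.14, and with the top 2.5% Cx3cr1 was 0.038, Il10rb 0.0064, Gapdh 0.035, Mt1 -0.010 and Cd74 -0.43. Within each library Cd74 was -0.026. With 1 library left out, Gapdh ran from -0.050 to 0.025, Cx3cr1 ran from -0.14 to 0.0063, Mt1 ran from -0.076 to 0.079, Il10rb ran from -0.059 to 0.013 and Cd74 from -0.24 to 0.47. For the difference of HI effects, Cd209g (0.080), Vcam1 (0.013), Lpl (0.0058) and Ccna2 (-0.013) turned with the top 10%, Vcam1 (0.075), Lpl (0.069), Ccna2 (-0.023) and Rrm2 (-0.0028) with the cut within each library, and Vcam1 ran from -0.48 to 0.10 with 1 library left out.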
